A study of Mus musculus with 53 samples.

Results

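The Hox genes of the 4 mouse clusters were examined in CUT&RUN peak lists of embryonic and extra-embryonic stem cell states. The 38 members were taken by name, among 21938 protein-coding genes of the annotation, with 10 genes in HoxA, 10 in HoxB, 9 in HoxC and 9 in HoxD. Each gene was read over its body plus 5 kb on each side, and each cluster over the span of its members plus 100 kb on each side. In CUT&RUN, a nuclease is tethered by an antibody to its target on chromatin, and the fragments it cuts free are sequenced. All cells were E14JU mouse ESCs of the SGGC reporter line, in which the endogenous SOX2 protein carries GFP and the endogenous GATA6 protein carries mCherry, and both clones used, B9 and B12, still held their resistance cassettes. The groups were naive ESCs in 2iLIF or NACL medium, SOX2+ and SOX2/GATA6 double positive (DP) cells sorted from KOSR medium, and naive extra-embryonic endoderm (nEnd), a culture model of primitive endoderm. 2iLIF, NACL and SOX2+ are called pluripotent below. H3K27ac and H3K4me1 were profiled in 2 libraries per group, except for 1 library of each mark in DP. SOX2 was profiled in 2 2iLIF, 2 NACL, 3 SOX2+ and 3 DP libraries, and GATA6 in 3 DP and 2 nEnd libraries. All KOSR libraries were of clone B12 and both nEnd H3K4me1 libraries were of clone B9, so these samples of a group share a clone and their spread may be partly technical.

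Hox genes encode homeodomain transcription factors that give the body axis its regional identity, and their order along a cluster follows the order of their expression domains from head to tail. Paralogues 1 to 3 are called anterior, 4 to 8 central and 9 to 13 posterior. In ESCs the clusters are known as large Polycomb domains, whose promoters carry repressive and activating histone methylation together. H3K4me1 marks poised and active enhancers and the flanks of promoters, while H3K27ac marks active ones, and Polycomb methylation of the same lysine was not profiled in these libraries.

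The 35 peak lists differed widely in length, from 13514 to 401853 peaks for H3K27ac, 18627 to 130749 for H3K4me1, 1378 to 29623 for SOX2 and 1391 to 32510 for GATA6. The signal is coverage on each library's own scale and read depth is unknown. Counts of Hox genes are therefore given over all deposited peaks and again over the strongest peaks of each library at an equal number. That number was the length of the shortest list of the antibody (13514, 18627, 1378 and 1391). Some other counts are given at equal numbers alone. A rank of 1 is the peak with the highest maximum signal of its library. At equal numbers, H3K27ac lay at 6 of 6 pluripotency markers in every 2iLIF library, 5 in NACL, 6 in SOX2+, 6 in DP and 3 in nEnd, and at 2, 1, 1, 2 and 7 of 8 primitive endoderm markers. Of 5 trophoblast markers it lay at 0, 0, 1, 1 and 2, and of 5 mesoderm and neural markers at 1, 1, 0, 0 and 1. Over all peaks the pluripotency counts were 6, 6, 6, 6 and 4, and the primitive endoderm counts 5, 7, 1, 4 and 7. The trophoblast counts were then 3, 5, 1, 4 and 2, and the mesoderm and neural counts 2, 3, 0, 2 and 1. One further library of each mark from KOSR cells has labels that disagree on the sorted population (DP or SOX2+), so it stands in no group and is described at the end. In sorted bulk cells, fewer cells with a mark and less of it per cell cannot be told apart.

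The sites below are from among those where SOX2 or GATA6 recurred inside a cluster span in every library of a group. Also shown are 2 sites beside HoxB that both factors shared in every DP library. The peaks of the Skap1 site cross the outer edge of the 100 kb flank. Each is the plus strand of GRCm38 (mm10), 201 bases around the maximum signal in the best-ranked SOX2 library, or GATA6 library for the sites named for GATA6 alone. None overlapped an annotated exon. Capitals mark AGATAA, a form of the GATA motif, and CATTGT, a form of the SOX motif, on either strand. Other forms of these motifs were not searched. The octamer ATGCAAAT was searched as well and was found in none of them.
HoxB 5′ flank site of SOX2 and GATA6, chr11:96114143-96114343: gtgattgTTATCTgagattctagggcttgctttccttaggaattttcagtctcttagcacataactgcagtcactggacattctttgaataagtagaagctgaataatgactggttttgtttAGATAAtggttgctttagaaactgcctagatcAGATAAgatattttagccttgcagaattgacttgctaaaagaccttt
Skap1 intron site of SOX2 and GATA6, chr11:96468297-96468497: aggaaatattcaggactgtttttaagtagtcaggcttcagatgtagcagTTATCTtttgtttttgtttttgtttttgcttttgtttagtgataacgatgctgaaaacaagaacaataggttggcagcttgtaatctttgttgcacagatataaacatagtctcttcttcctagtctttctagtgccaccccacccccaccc
Hoxb13 to Hoxb9 site, nearer Hoxb13, SOX2, chr11:96203313-96203513: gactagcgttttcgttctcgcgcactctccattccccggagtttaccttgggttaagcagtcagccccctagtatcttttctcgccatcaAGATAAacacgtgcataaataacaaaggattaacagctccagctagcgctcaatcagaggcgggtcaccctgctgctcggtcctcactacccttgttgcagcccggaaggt
Hoxb13 to Hoxb9 site, nearer Hoxb9, SOX2, chr11:96259607-96259807: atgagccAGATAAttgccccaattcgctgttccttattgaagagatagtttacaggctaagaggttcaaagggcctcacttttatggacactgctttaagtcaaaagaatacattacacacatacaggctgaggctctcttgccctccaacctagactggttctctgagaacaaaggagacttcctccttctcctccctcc
Hoxb3 intron site, GATA6, chr11:96327369-96327569: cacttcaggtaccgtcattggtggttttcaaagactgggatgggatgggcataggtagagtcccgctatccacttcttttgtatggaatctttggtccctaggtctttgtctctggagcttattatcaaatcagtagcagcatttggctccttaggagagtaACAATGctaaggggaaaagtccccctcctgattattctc
Hoxc4 intron site, GATA6, chr15:103024611-103024811: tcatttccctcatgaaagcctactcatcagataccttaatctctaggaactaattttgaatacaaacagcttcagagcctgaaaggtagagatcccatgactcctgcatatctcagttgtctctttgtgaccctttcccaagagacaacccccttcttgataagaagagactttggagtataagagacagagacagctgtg
The HoxB 5′ flank site held 3 AGATAA strings and the Skap1 site held 1. AGATAA stood in 29.1% of the 4859 windows of the same length in the DP A SOX2 library, on which both were centred, and CATTGT in 32.7% of them. AGATAA was also found 1 time in each of the Hoxb13 to Hoxb9 sites. Among windows of the 2iLIF B9 SOX2 library, on which the site nearer Hoxb9 was centred, its share was 12.0%. CATTGT was found in the Hoxb3 intron site, against 27.4% of the windows of the nEnd B9 GATA6 library. The Hoxc4 intron site held none of these strings. AGATAA stood in 57.3% of the nEnd B9 GATA6 windows, and in neither the Hoxb3 nor the Hoxc4 intron site. The variant TGATAA, which was not searched, stands in both on either strand, so neither site is read as lacking a GATA motif. The sites shown are not all that met the rule, so no share of motifs among them is read.

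H3K27ac was found at a smaller share of the Hox genes than of all genes in every library. Over all deposited peaks, 22 and 23 of the 38 genes had a peak in the 2iLIF libraries of B9 and B12, 22 and 28 in NACL, 0 and 0 in SOX2+ A and B, 5 in DP, and 5 and 1 in nEnd. Each naive library had a peak at most of the genes, and the SOX2+ libraries at none. In both libraries of a group, 20 genes had a peak in 2iLIF and 20 in NACL, against 80.6% and 78.4% of all genes. In SOX2+ cells it was 0 genes against 24.5%, in the DP library 5 against 60.7%, and in nEnd 1 against 48.1%. The naive counts rested largely on weak peaks, with the median member's best peak at 39.1% and 41.4% of the way down the list in 2iLIF and at 52.6% and 48.2% in NACL.

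At 13514 peaks per library, 4 and 4 Hox genes kept an H3K27ac peak in 2iLIF, 3 and 2 in NACL, 0 and 0 in SOX2+, 1 in DP, and 3 and 1 in nEnd. No library exceeded 4 genes. Both 2iLIF libraries were above every other library, by 1 gene at the nearest, and NACL and nEnd overlapped. The genes called in every library were Hoxa3, Hoxc4, Hoxc12 and Hoxc13 in 2iLIF (background 32.5% of all genes), Hoxc4 in NACL (34.6%), none in SOX2+ (24%), Hoxc4 in the DP library (30.7%) and Hoxa2 in nEnd (39.4%). HoxD had no gene with such a peak in any H3K27ac library, and neither had HoxB. Hox windows were shorter than those of most genes, with a median of 13496.5 bp against 27425 bp. Over start sites plus and minus 5 kb, where all windows have one length, at most 2 Hox genes per library had an H3K27ac peak at this number, that is 0 to 5.26%, against 19.4% to 37.8% of all genes.

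**Figure D1:**
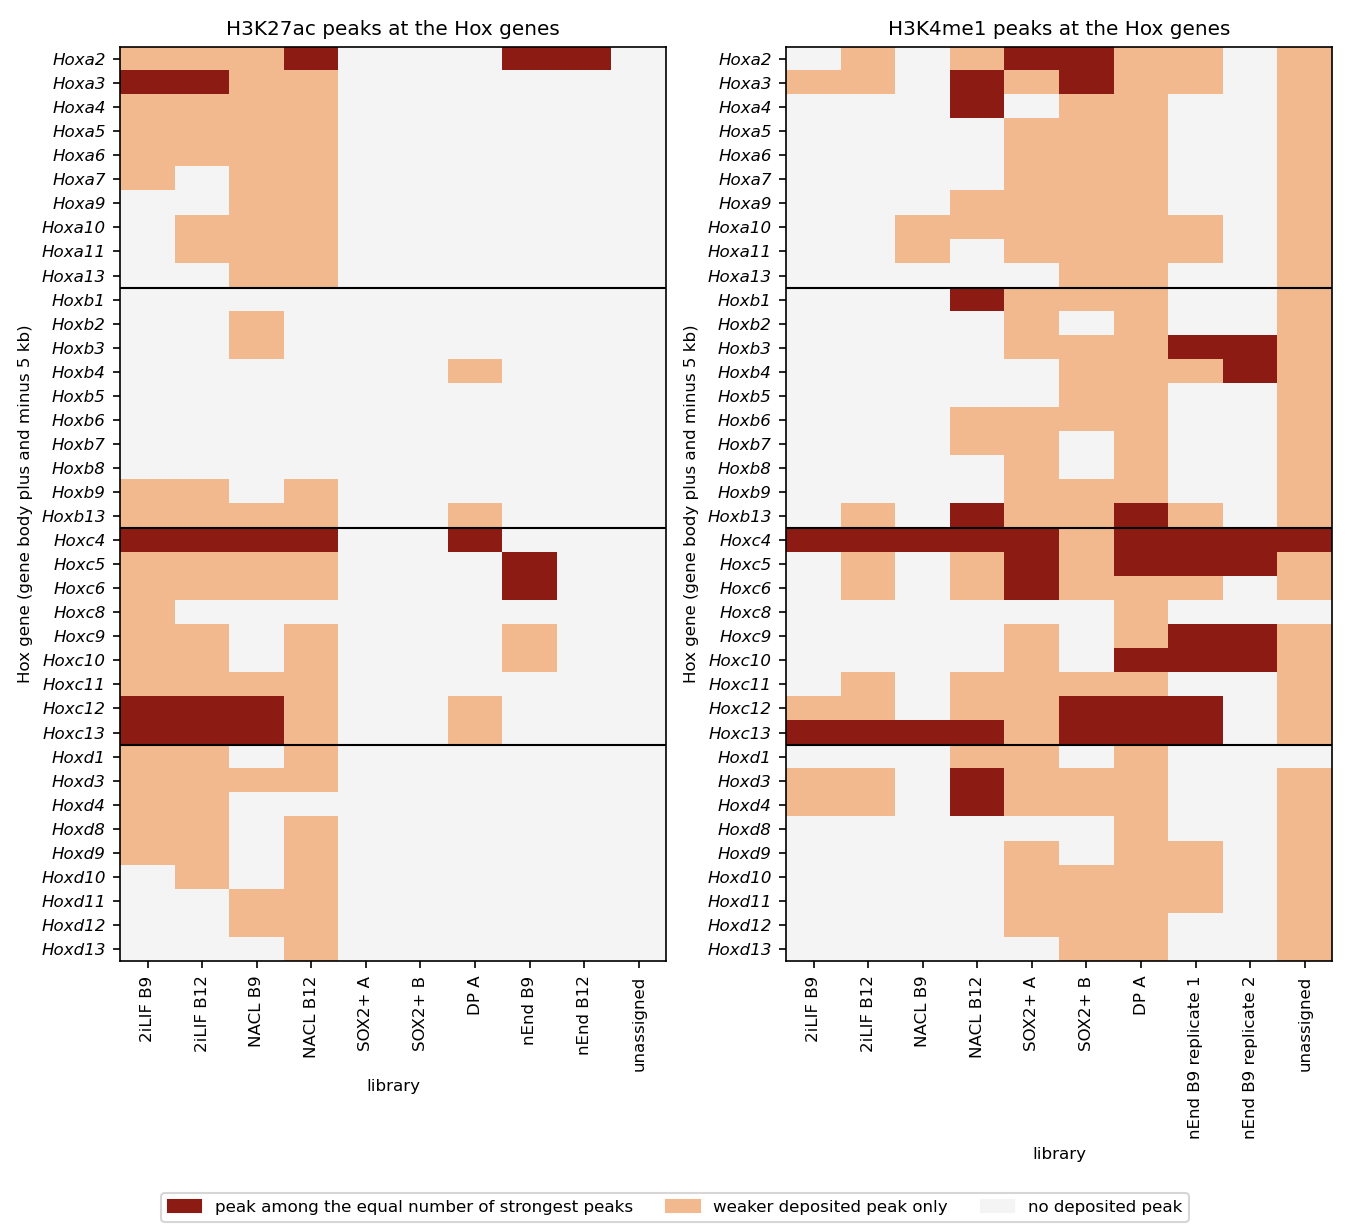
Hox genes (rows, by cluster) with a peak over the gene body plus and minus 5 kb in each library (columns) of H3K27ac, left, and H3K4me1, right. Dark cells are peaks among the equal number of strongest peaks, pale cells weaker deposited peaks. The SOX2+ H3K27ac columns are empty for all 38 genes, while the DP H3K4me1 column is filled for all 38.

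The best-ranked H3K27ac peak in any member window lay at and past the 3′ end of Hoxc4, a central gene of HoxC, at chr15:103033837-103047076. The peak ranked 3148 and 317 in the B9 and B12 libraries of 2iLIF, 2465 and 2043 in NACL, and 7386 in DP, where it was 103041687 to 103041933 only. No H3K27ac peak of any strength lay there in SOX2+ or nEnd. H3K4me1 covered the same place, with ranks of 3388 and 879 in 2iLIF, 7860 and 706 in NACL, 13700 in SOX2+ A, 18751 in SOX2+ B, 8246 in DP and 29994 in nEnd replicate 1. In naive cells the region thus ranked high for both marks, whereas in SOX2+ cells it had H3K4me1 alone.

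The other end of HoxC, at Hoxc12 and Hoxc13, was the second region with strong naive H3K27ac. Hoxc13 is known for hair and nail development, and Hoxc12 is its neighbour. An H3K27ac peak at chr15:102924384-102938404 ranked 2097 and 4146 in 2iLIF, 6879 in NACL B9 and 14062 in NACL B12, the last just outside the equal number. In DP the best H3K27ac peak there ranked 37166. At Hoxc13, H3K4me1 ranked 16923 and 16984 in 2iLIF, 7104 and 9702 in NACL, 22811 and 10725 in SOX2+ A and B, 12040 in DP and 17355 in nEnd replicate 1, and was not seen in nEnd replicate 2. Peaks such as these touch several windows, so Hoxc12 and Hoxc13 are often called by the same peak.

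In HoxA, Hoxa3, which shapes the derivatives of the third pharyngeal arch, had its strongest H3K27ac peak inside its annotated extent, at ranks 5094 and 8330 in 2iLIF and 87173 and 34563 in NACL. Hoxa2, which specifies the second pharyngeal arch, was called from a peak beyond its 3′ end, with ranks of 5073 and 10956 in nEnd B9 and B12. Within the same gene window the strongest peak ranked 16124 and 84813 in 2iLIF and 19157 and 7294 in NACL, so the nEnd and pluripotent libraries overlapped. No H3K27ac peak was found at Hoxa2 in SOX2+ or DP. In HoxB, H3K27ac stood in no member window at equal numbers but in the wide interval between Hoxb13 and Hoxb9, at chr11:96249119-96257204. Its ranks were 9951 and 6669 in 2iLIF, 6414 and 9335 in SOX2+ and 1345 in DP, and both NACL libraries had only peaks outside the equal number there. No nEnd library had a peak there at any rank.

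H3K4me1 behaved differently from H3K27ac once weaker peaks were counted. Over all peaks, 6 and 11 Hox genes had H3K4me1 in 2iLIF B9 and B12, 4 and 18 in NACL, 31 and 29 in SOX2+ A and B, 38 of 38 in DP, and 17 and 6 in nEnd replicates 1 and 2. The SOX2+ and DP libraries were above every naive and nEnd library. As percentages, Hox genes stood at 81.6% and 76.3% in SOX2+ against 65.6% and 70.9% of all genes in the same libraries, and at 100% against 80.1% in DP. In 2iLIF they stood at 15.8% and 28.9% against 41.0% and 59.2%. NACL B12 was the only naive library above its background, at 47.4% against 39.1%, but over start sites plus and minus 5 kb it was below, at 18.4% against 23.7%. Over start sites SOX2+ stood at 63.2% and 60.5% against 49.9% and 56.6% of all genes, and DP at 100% against 72.8%. With a peak required in every library of a group, 6 genes were called in 2iLIF (background 40.2%), 3 in NACL (34.5%), 24 in SOX2+ (63.3%), 38 in the DP library (80.1%) and 6 in nEnd (32.1%). The 24 genes of SOX2+ were 5 of 7 anterior, 8 of 15 central and 11 of 16 posterior genes. They came from all clusters, with 8 in HoxA, 5 in HoxB, 6 in HoxC and 5 in HoxD.

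**Figure D2:**
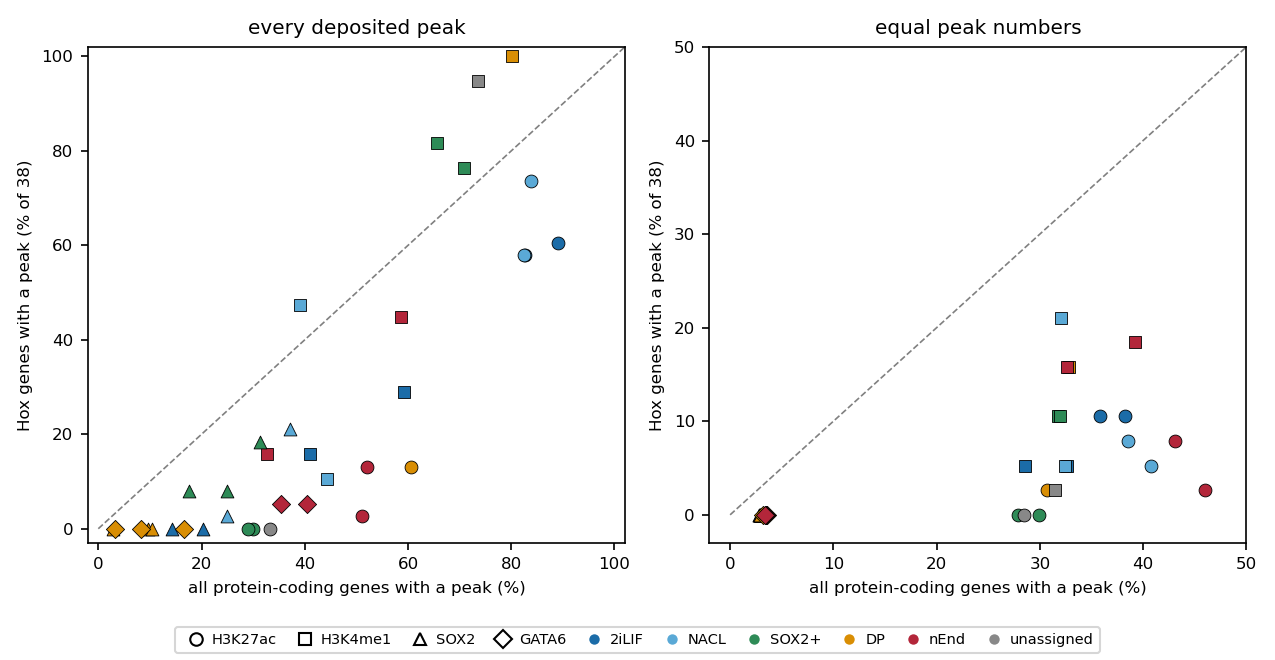
Percent of the 38 Hox genes with a peak (vertical axis) against percent of all protein-coding genes with a peak (horizontal axis) in each library, over every deposited peak, left, and at equal peak numbers, right, with equality dashed. Over all peaks the SOX2+, DP and ungrouped H3K4me1 libraries and NACL B12 lie above the line, and at equal numbers every library lies below it or at 0.

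The H3K4me1 counts of KOSR cells rested largely on peaks outside the equal number. The median member's best peak stood 27.1% of the way down the DP list. In SOX2+ A and B it stood at 56.45% and 56.3%. Naive positions were 63.5% (2iLIF B9), 55.9% (2iLIF B12), 48.7% (NACL B9) and 84.2% (NACL B12). For nEnd replicates 1 and 2 they were 45.7% and 20.1%. The lists differ in length, so equal positions are not equal ranks. At 18627 peaks per library, 2 and 2 Hox genes were left in 2iLIF, 2 and 8 in NACL, 4 and 4 in SOX2+, 6 in DP, and 7 and 6 in nEnd, against 28.6% to 39.2% of all genes. SOX2+ then lay within the range of the naive libraries. The number was raised, after these values were seen, to the sizes of longer lists. At 24700 peaks, the largest size that all naive lists reach, 6 and 3 genes had H3K4me1 in 2iLIF, 4 and 18 in NACL, 9 and 7 in SOX2+, 9 in DP and 13 in nEnd replicate 1, with all genes between 34.1% and 46.2%. NACL B12 was above every KOSR library and was the only grouped library with a larger share of Hox genes than of all genes, which did not hold over start sites, as given above for the same full list. At 33252 peaks, 2iLIF had 6 and 6, SOX2+ 17 and 9, DP 16 and nEnd replicate 1 13, with all genes between 41.0% and 53.1%, and no NACL list was long enough. At 42816 peaks, the 2iLIF B12 library showed 8 genes, SOX2+ A 24, SOX2+ B 13, DP 25 and nEnd replicate 1 17, with all genes between 53.0% and 58.6%. At 52599 peaks, 2iLIF B12 showed 11, SOX2+ A 31, SOX2+ B 21 and DP 26, with all genes between 59.2% and 62.7%. SOX2+ A and DP were then above their all-gene shares, and SOX2+ B and 2iLIF B12 below theirs. At both of these sizes each SOX2+ and DP library was above 2iLIF B12, the single naive library that was long enough. At 42816 peaks nEnd replicate 1 lay between SOX2+ B and SOX2+ A. The 2 SOX2+ libraries differed from each other by more than SOX2+ B differed from 2iLIF B12 at 42816 peaks. The order of KOSR and naive cells therefore depended on the size and on whether NACL B12 was long enough to enter. What sets the list lengths was not tested.

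**Figure D3:**
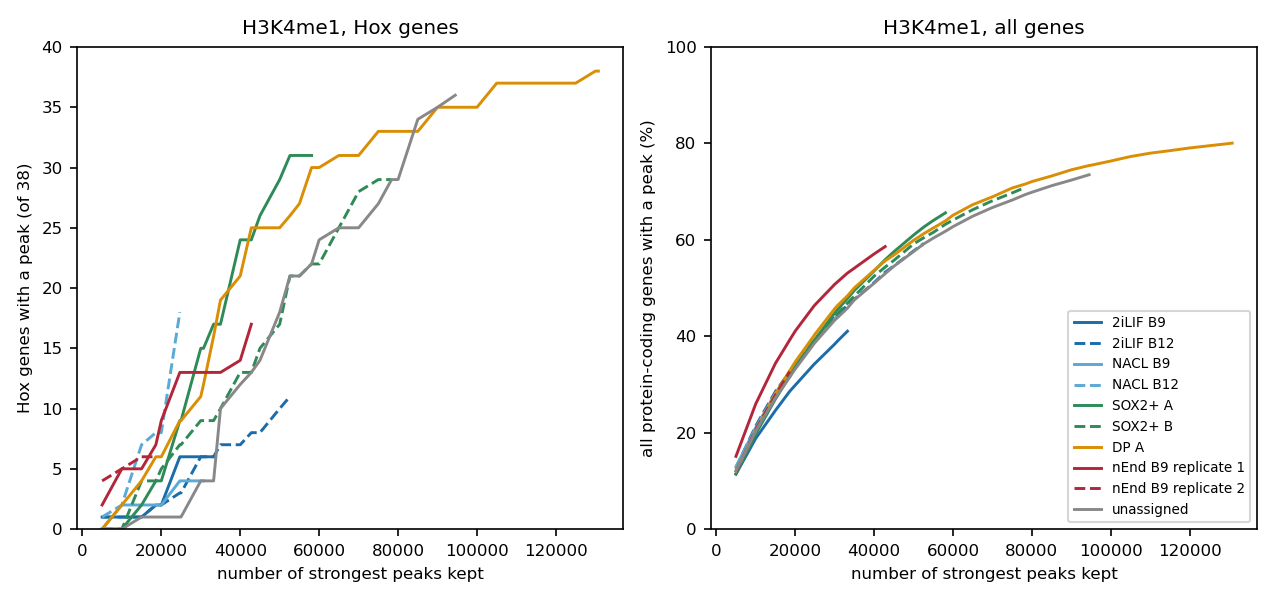
Number of Hox genes with an H3K4me1 peak (left) and percent of all protein-coding genes with one (right) as more of each library's strongest peaks are kept (horizontal axis). The all-gene curves run close together, while the Hox curves spread, from 8 genes in 2iLIF B12 to 25 in DP at 42816 peaks.

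H3K4me1 coverage showed the extent of these peaks along the clusters. Over all peaks, DP H3K4me1 covered 32.9% of the HoxA span, 24.2% of HoxB, 26.3% of HoxC and 25.6% of HoxD. In SOX2+ it covered 18.4% and 20.4% of HoxA, 9.58% and 11.1% of HoxB, 12.6% and 14.6% of HoxC, and 6.86% and 8.58% of HoxD. In both HoxA and HoxB, the SOX2+ and DP libraries were above the 4 naive libraries, which reached at most 11.5% of HoxA and 6.72% of HoxB, while nEnd replicate 1 (10.3% of HoxB) lay between both SOX2+ libraries. In HoxC, 2iLIF B12 (18.2%) was above SOX2+ but below DP, and nEnd replicate 1 (29.7%) was above both. In HoxD, 2iLIF B12 (8.70%) was above both SOX2+ libraries. Of the whole genome, all peaks covered 7.25% in DP and 4.53% and 4.95% in SOX2+ A and B. Naive libraries ranged from 2.92% (NACL B12) to 7.56% (2iLIF B12), and nEnd replicates 1 and 2 had 6.08% and 2.94%. At equal numbers, DP H3K4me1 covered 0% of HoxA and HoxD, 1.3% of HoxB and 7.23% of HoxC. NACL B12 (5.51% of HoxA, 5.52% of HoxB) was then above DP and both SOX2+ libraries. The other naive libraries had 0% of HoxA and at most 2.34% of HoxB. H3K27ac covered none of the HoxA, HoxC and HoxD spans in SOX2+ and at most 1.0% of HoxB. The least marked member was Hoxc8, with an H3K4me1 peak in DP alone and an H3K27ac peak in 2iLIF B9 alone. Hoxb5, Hoxb6, Hoxb7 and Hoxb8, neighbouring central genes, had no H3K27ac peak in any library, and neither had Hoxb1.

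At equal numbers the genes with a peak in every library were Hoxc4 and Hoxc13 in 2iLIF (background 25.1%) and in NACL (26%), Hoxa2 in SOX2+ (26.1%), 6 genes in the DP library (32.9%), namely Hoxb13, Hoxc4, Hoxc5, Hoxc10, Hoxc12 and Hoxc13, and Hoxb3, Hoxc4, Hoxc5, Hoxc9 and Hoxc10 in nEnd (28.7%). Hoxb3, Hoxc9 and Hoxc10 had a peak in both nEnd libraries and in none of the 6 pluripotent libraries. This pattern was seen at 5.33% of all genes, so that 3 of 38 members is near the background. Over all peaks 0 Hox genes showed it, against 1.04% of all genes. Of the 5 nEnd genes, Hoxc4 was also called in 2iLIF, NACL and DP, and Hoxc5 and Hoxc10 in DP. On average 6.5 ± 0.71 Hox genes had H3K4me1 in nEnd (SD, n = 2) and 3.67 ± 2.34 in pluripotent libraries (n = 6), a difference of 2.83 that is near the pluripotent spread and turned to -5 over all peaks.

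The peak at Hoxb3, an anterior gene active in the hindbrain, lay inside the gene at chr11:96331663-96340163. It ranked 6616 in nEnd replicate 1 and 3831 in replicate 2. Of the other 8 libraries only DP had an H3K4me1 peak in that stretch, and it lay outside the equal number. The peak called for both Hoxc9 and Hoxc10, which pattern the thoracic and lumbar levels, ran from the 3′ end of Hoxc10 towards Hoxc9, at chr15:102970265-102974648, with ranks of 7582 and 3674, and no other library had a peak there. It is 1 region, counted for Hoxc5 as well because the annotated extent of Hoxc5 reaches back to Hoxc10. This region holds the microRNA gene Mir196a-2, and both nEnd H3K4me1 libraries were the only ones of the 35 lists with a peak over it. Its mature product, a repressor of Hox transcripts, is shown from RefSeq (GRCm38.p6, chr15:102973365-102973386, plus strand) with the seed, bases 2 to 8, in capitals.
mmu-miR-196a-5p: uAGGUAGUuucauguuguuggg
The same mature sequence is encoded by Mir196a-1 in HoxB, where the DP library alone had an H3K4me1 peak. The third nEnd region lay in Hoxc4 itself, at chr15:103018403-103028594, with ranks of 3349 and 6828. Hoxc4 was therefore called in naive cells and in nEnd from different regions, mainly at and past its 3′ end in the former and over its body in the latter. H3K27ac followed only in part, since no nEnd library had H3K27ac inside the HoxB span. Of the nEnd libraries only B9 had it in HoxC, at Hoxc5 and Hoxc6 with rank 8918. A weaker B9 peak, with rank 18292 and outside the equal number, was called for both Hoxc9 and Hoxc10.

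**Figure D4:**
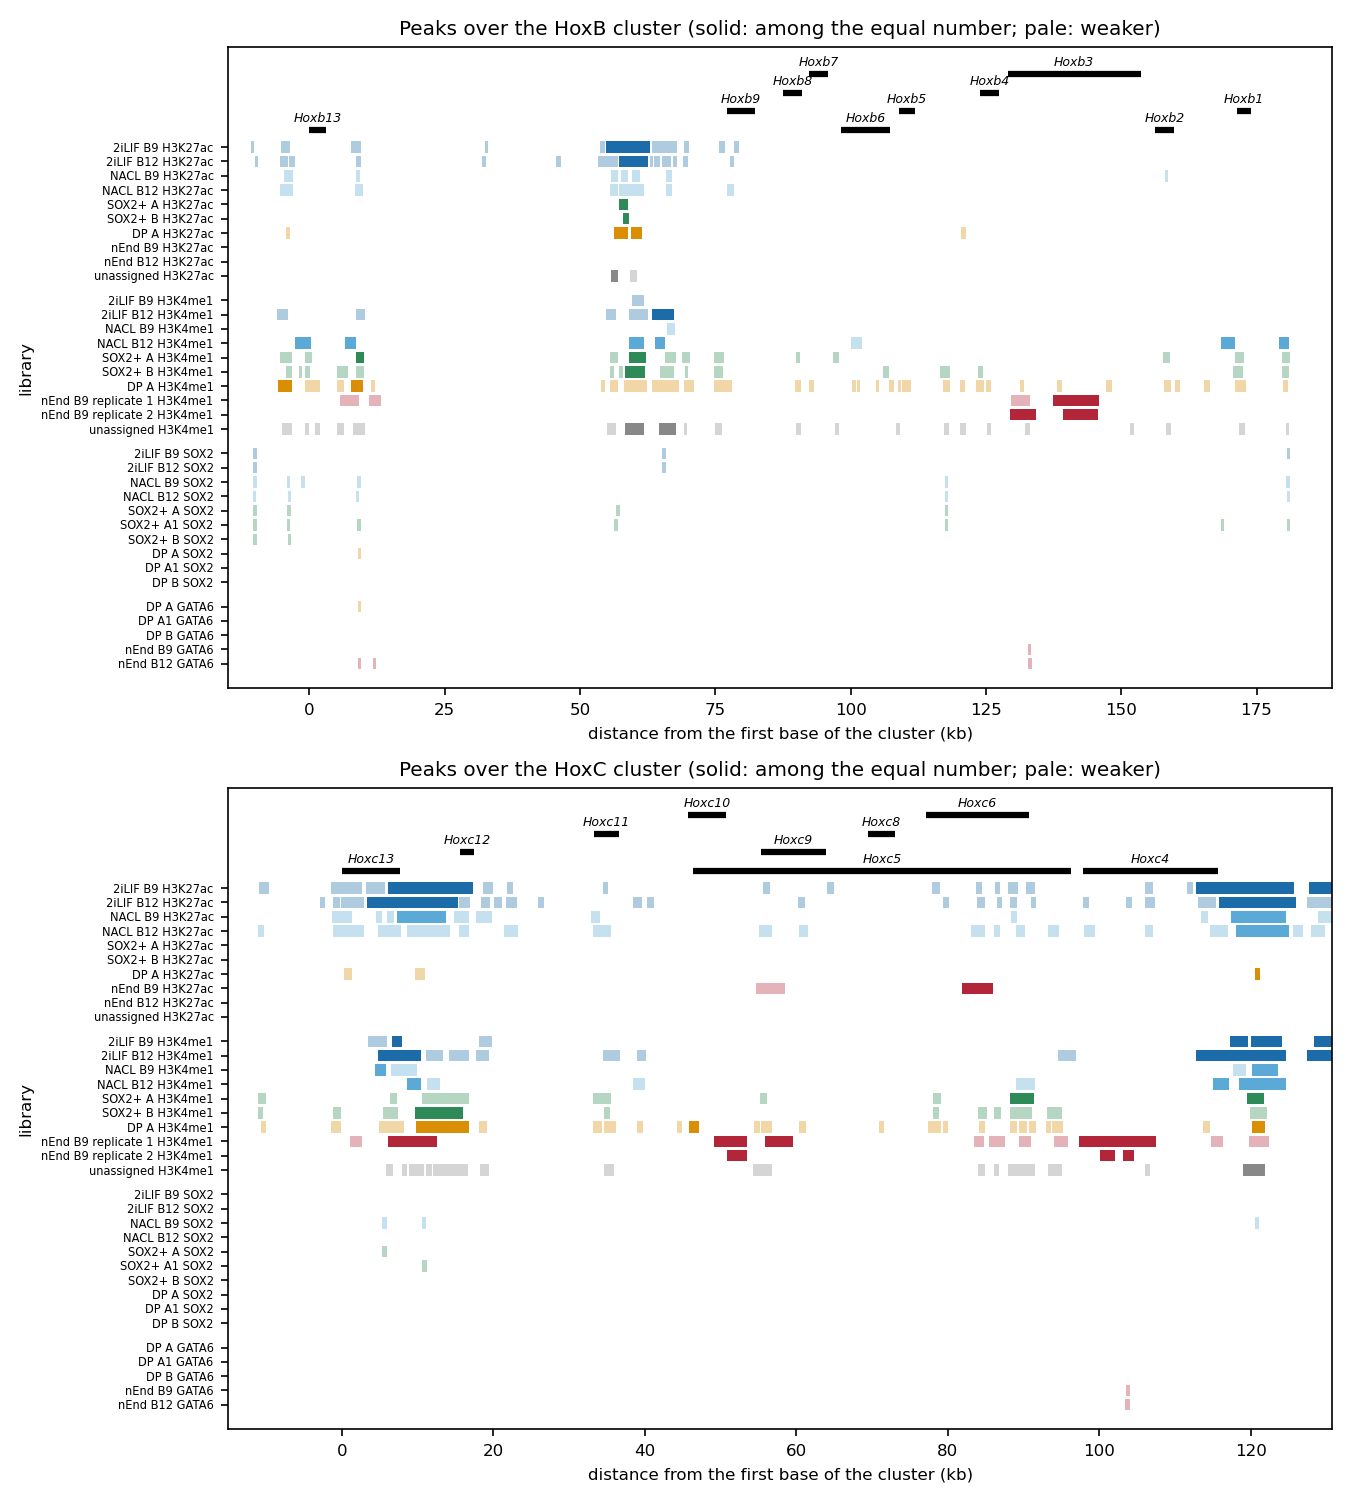
Peaks of each library (rows) along HoxB, top, and HoxC, bottom, by distance in kb from the first base of the cluster (horizontal axis), with gene extents in black and colours for the groups. The nEnd H3K4me1 bars over Hoxb3, Hoxc4 and the 3′ end of Hoxc10 have no solid counterpart in 2iLIF, NACL or SOX2+, and the naive bars at the 3′ end of Hoxc4 have no H3K27ac counterpart in SOX2+ or nEnd.

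SOX2 and GATA6 were found at few Hox genes, and over gene bodies plus 5 kb at a smaller share of them than of all genes in every library. Over start sites plus and minus 5 kb and all peaks, the share of Hox genes was above that of all genes in SOX2+ A1 (15.8% against 14.6%) and SOX2+ B (7.89% against 6.40%). At equal numbers 0 of 38 genes had a peak in any SOX2 library, where 7.13% of all genes had one in at least 1 library, and 0 in any GATA6 library, against 7.65%. Within single libraries 2.82% to 3.58% of all genes had one, so a count of 0 among 38 is near the background there. Over all peaks, SOX2 was found at 0 and 0 genes in 2iLIF, 8 and 1 in NACL, 3, 7 and 3 in SOX2+ and 0, 0 and 0 in DP. With every library of a group required, this was 0 genes in 2iLIF (background 13.6%), 1 in NACL (23.4%), 1 in SOX2+ (16.6%) and 0 in DP (2.66%). The gene in NACL and SOX2+ was Hoxb13, the most posterior HoxB gene, with a peak before its start ranking 5264 and 6361 in NACL and 5636, 5599 and 7602 in SOX2+. The DP lists held 1378, 4859 and 5320 peaks, so of these ranks 5264 alone would fall within any of them. GATA6 was found at 0 genes in DP (2.84%) and at Hoxb3 and Hoxc4 in both nEnd libraries (32.1%).

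Within the spans, SOX2 had 12 sites over all libraries, 4 of them in 1 library only, and GATA6 had 4. The site between Hoxb13 and Hoxb9 nearer to Hoxb9 was seen in 2iLIF at 4494 and 6831 and nowhere else. Nearer to Hoxb13, SOX2 stood at 25895 and 9320 in NACL, 18120 in SOX2+ A1 and 4136 in DP A, and GATA6 at 2594 in DP A and 9320 in nEnd B12. All these ranks lie beyond the equal number of 1378 or 1391 peaks.

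Both GATA6 sites inside genes were weak as well, with ranks of 9700 and 19284 in nEnd B9 and B12 at Hoxb3 and of 20413 and 25826 at Hoxc4. Each lay under H3K4me1 of both nEnd libraries. At Hoxb3 these peaks ranked 21330 and 10311, and at Hoxc4 they ranked 3349 and 6828. No 2iLIF, NACL, SOX2+ or DP library had H3K4me1 over either site, while the KOSR library without a group had a peak at the Hoxb3 site with rank 80096. Further, no SOX2 library had a peak there, and neither nEnd library had H3K27ac at them.

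The strongest binding in the cluster windows was outside the spans, in the flanks of HoxB. The 5′ flank site, 79972 bp before Hoxb13, overlapped no gene. SOX2 was found there in all 10 libraries and GATA6 in all 5. SOX2 ranked 2452 and 1117 in 2iLIF, 5504 and 946 in NACL, 163, 244 and 244 in SOX2+, and 8, 10 and 35 in DP A, A1 and B. GATA6 ranked 3, 11 and 10 in DP and 2928 and 340 in nEnd. The site thus stood among the 35 strongest SOX2 peaks of each DP library and the 11 strongest GATA6 peaks. The lists differ in length, and as a share of the SOX2 list the rank was 0.165%, 0.188% and 2.54% in DP, 0.969% to 2.32% in SOX2+, and 5.53% to 18.6% in naive cells, so that DP B did not stand apart from SOX2+. The site was chosen for its presence in every DP library, and these ranks are a description. H3K27ac covered it in all 10 libraries, with ranks from 46 in DP to 17079 in nEnd B9, and H3K4me1 in all but nEnd replicate 2. The nearest cluster member is far, and which gene the site acts on was not tested.

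**Figure D5:**
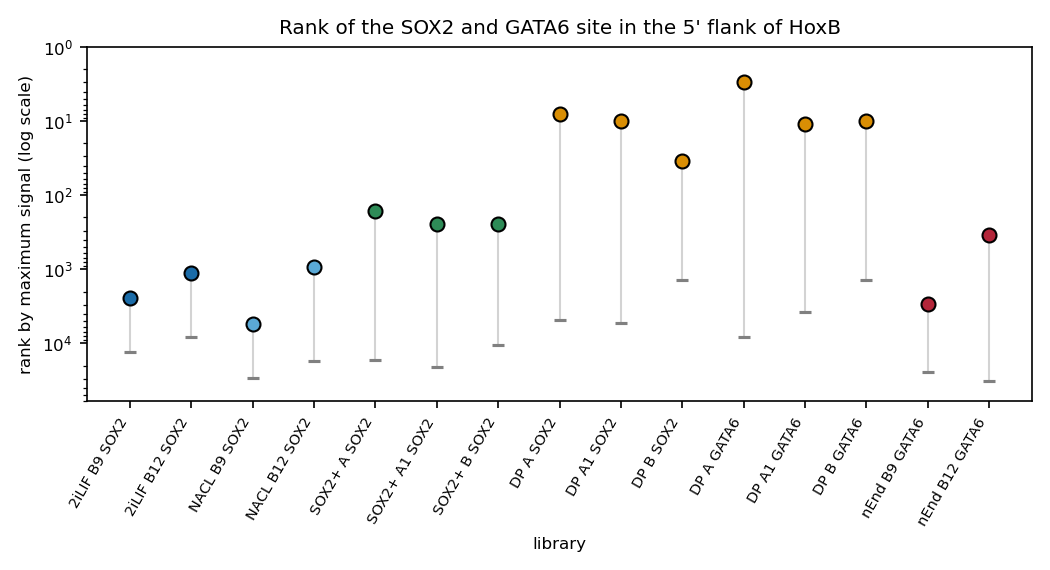
Rank of the peak at the HoxB 5′ flank site (points, log axis with rank 1 at the top) in each SOX2 and GATA6 library, with the length of the list as a grey tick. The DP points lie between rank 3 and rank 35, above those of all other groups by raw rank, in lists of unequal length.

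The second shared site lay on the other side of HoxB, in an intron of Skap1, which encodes an adaptor of T cell receptor signalling. The bases shown begin 100040 bp past Hoxb1, just outside the 100 kb flank, and the DP peaks reach across its edge. SOX2 ranked 702, 2391 and 819 in DP A, A1 and B, and it was otherwise seen in 2iLIF B9 at 11288 and in NACL B12 at 11654. GATA6 ranked 261, 84 and 266 in DP and 2222 and 237 in nEnd. No H3K27ac peak covered it in any library. On the HoxA side SOX2 had 7 flank sites, 6 of them in every library of at least 1 pluripotent group and none in DP. Most of their pluripotent ranks lay beyond 5320, the length of the longest DP list, so their absence in DP is not read as a loss. At equal numbers NACL B9 alone had a SOX2 peak there, with rank 1084.

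Numbers of peaks per cluster window were compared by exact permutation tests over libraries, two-sided, with Benjamini-Hochberg adjustment over the 4 clusters of a comparison. None of the 20 tests passed 0.05, and only the 4 of SOX2 in DP against pluripotent libraries had enough libraries for an unadjusted p under it. In HoxA, H3K27ac had 1 peak in each nEnd library and 3.67 ± 1.03 in the pluripotent libraries (SD, n = 6, exact p = 0.0714, adjusted 0.286). H3K4me1 had 2 in each nEnd library and 5.5 ± 1.64 in pluripotent ones (n = 6, exact p = 0.0714, adjusted 0.286). In both cases the groups did not overlap, and 0.0714 is the smallest p that 2 against 6 libraries allow. The nEnd H3K27ac peaks were wider, with medians of 4386 and 5453 bp against 1008 to 1574 bp in the pluripotent libraries. For H3K4me1 the medians were 2639 and 3203 bp against 1254 to 2766 bp. A lower count of peaks is therefore not read as less marking. In HoxB, SOX2 had 1.67 ± 0.58 peaks in DP (n = 3) and 0.714 ± 0.488 in pluripotent libraries (n = 7, exact p = 0.1, adjusted 0.4). GATA6 had 3 peaks in every DP library and 0 and 2 in nEnd, with p = 0.2 by the exact permutation test, the smallest that design allows. The HoxB counts of both factors include peaks of the Skap1 site, which cross the edge of the window. HoxC and HoxD had no SOX2 or GATA6 peak in their windows at equal numbers in any library.

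Genes beside the clusters and genes of their chromatin regulators were read in the same way. Of 14 neighbours of the clusters, 8, 10, 9, 10 and 7 had H3K27ac at equal numbers in every library of 2iLIF, NACL, SOX2+, DP and nEnd. Evx1 and Evx2, homeobox genes beside HoxA and HoxD, were not among them. Of 10 Polycomb and Trithorax genes, 8, 7, 7, 8 and 10 had it. SOX2 lay at Jarid2, which encodes a partner of Polycomb complex 2, in every library of all 4 groups at equal numbers.

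The H3K27ac and H3K4me1 libraries of KOSR cells without a group held 19185 and 94492 peaks. Hox genes with a peak numbered 0 for H3K27ac and 36 for H3K4me1, against 33.3% and 73.5% of all genes. At equal numbers these were 0 and 1, against 28.4% and 31.5% of all genes, the 1 being Hoxc4 with rank 10210. The H3K27ac count equals that of both SOX2+ libraries, and over all peaks the H3K4me1 count lies between those of SOX2+ and DP, while at equal numbers it is below both.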

How the data were processed

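The analysis started from the deposited CUT&RUN peaks of 35 libraries. The submitters' processing notes list cutadapt 1.18 for trimming, Bowtie2 2.3.4.1 for alignment, SAMtools 1.9, Picard 2.9.1, bedtools 2.27.1 and deepTools 3.2.0, with mm10 as the build. Peaks were the authors' SEACR calls, made per library with IgG as the control, and the 18 IgG samples were not used here. The deposited values are coverage signal per peak, summed and at its maximum, on each library's own scale, so read depth is unknown and signals of different libraries were not compared. The deposited lists carry the relaxed mode of SEACR for histone marks and the stringent mode for transcription factors, whereas the methods state the reverse. Groups follow the labels. The source name of the NACL B12 SOX2 sample names IgG and no medium, and its title gave its group.

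Peaks were ranked by maximum signal within a library, with ties broken by summed signal. For H3K4me1 up to 4882 peaks were tied at the limit of the equal number. Genes were protein-coding genes of GENCODE M21, and an overlap of 1 bp counted. Peaks per cluster window were compared by exact two-sided permutation tests over libraries, with Benjamini-Hochberg adjustment over 4 clusters and a threshold of 0.05, using Python 3.11.15, NumPy 2.4.6 and SciPy 1.17.1. Counting and tests were checked on simulated data. Members and lists were chosen with earlier results of these data known. The genes named had a peak in every library of a group at equal numbers, or in every library on one side of a comparison and none on the other, and other names were chosen after their values were seen. Alternatives were all peaks, windows around start sites, spans without flanks, bases covered, leaving out each library and replicate blocks. Some sites and genes that met these rules are not reported here.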

Additional observations from a re-analysis of the deposited data

Results flagged for a closer look

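Of 12 groups of 4 to 10 libraries that were tested for a single distant value, 2 held one, and chance gives about 1 in 20. NACL B12 had 8 Hox genes with H3K4me1 at equal peak numbers, while the other pluripotent libraries had 2 to 4. NACL B9 had 1 SOX2 peak in the HoxA window at equal numbers, while the other 6 pluripotent libraries had 0.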

How the results depend on the processing

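The number of peaks kept changed the direction or size of several differences between groups. Over every deposited peak, the difference in Hox genes with a peak became -12.8 for H3K27ac (nEnd minus pluripotent, -0.167 at equal numbers), -5 for H3K4me1 (2.83), -3.14 for SOX2 (DP minus pluripotent, 0), -4.33 for SOX2 (DP minus SOX2+, 0) and 2 for GATA6 (nEnd minus DP, 0). The differences in peaks per window became -5.17 in HoxB, -1.83 in HoxC and -3.5 in HoxD for H3K4me1, -2.62 in HoxB for SOX2 in DP minus pluripotent, -3.67 in HoxB for DP minus SOX2+, and 1 in HoxB for GATA6, each against the direction at equal numbers. HoxD H3K4me1 also turned to -0.167 in the span without flanks, and HoxB SOX2 in DP minus SOX2+ to -0.00339 as percent of bases covered. Without single libraries, HoxC H3K4me1 ranged from -0.167 (without nEnd replicate 1) to 2.83 and HoxD H3K4me1 from -0.333 (without nEnd replicate 2) to 0.667. Of 264 alternatives for clusters, 254 did not change direction, and of 67 for gene differences, 62 moved by less than the spread between libraries. Many of these are 0 against 0, and most designs are too small to pass the threshold, so they say little about stability. Of 27 alternatives for the other counts, 16 moved. With a replicate block by experiment, DP minus SOX2+ gave 0 for genes and 0.667 for HoxB (exact permutation adjusted p = 1). Without DP B alone, HoxB SOX2 in DP minus pluripotent was 0.786. With the equal number also raised to 4859 peaks, an alternative chosen after seeing the data, it was 2.93 (exact permutation adjusted p = 0.222). The cause of these changes was not tested, and read depth is unknown.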
